A study of Mus musculus with 14 samples.

Results

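42 genes of skeletal muscle were followed across 12 mammary tumours of Brg1+/- mice. They were found by gene symbol in the annotation of the array probes, and all 42 were measured, by 57 probes, among 16877 genes in all. By role they were 14 genes of fast fibres, 9 of slow fibres, 2 developmental myosins, 8 sarcomere genes shared by both fibre types, 2 of excitation-contraction coupling, 4 of energy supply and oxygen storage, and 3 transcription factors. Where a gene had several probes their values were averaged.

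Skeletal muscle contracts as myosin heads of the thick filament pull on actin of the thin filament, within a repeated unit called the sarcomere. Calcium released from the sarcoplasmic reticulum starts each contraction through the troponins. Fibres come in fast and slow kinds, which use different genes for myosin heavy and light chains, troponins, calcium pumps and Z-disc proteins. The heavy chain genes Myh4, Myh1 and Myh2 encode the fast IIb, IIx and IIa chains, and Myh7 encodes the slow chain, which the heart also makes. The mammary gland itself holds no skeletal muscle, but muscle of the body wall lies beneath its fat pad.

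Each tumour was labelled as a mammary tumour of a Brg1 heterozygous mouse (Brg1+/-), and no other genotype and no normal tissue was compared. Brg1, encoded by Smarca4, is an ATPase that drives SWI/SNF remodelling of chromatin. The tumours were T55, T135, T160, T172, T176, T221, T284, T372, T646, T920, T2023 and T2134, of which T172 and T284 had 2 arrays each, so 14 arrays were used. The labels give no treatment, age or dissection and leave the word MIXED in the titles unexplained. They do not say whether tumours came from separate animals, and call the second arrays a biorep without saying what was repeated, so p-values describe these samples only. On every array the tumour was labelled with Cy5 and the same mouse reference RNA with Cy3, and a level here is the log2 ratio of tumour over reference. A level of 0 means equal signal from both. The 14 arrays had values for 22501 to 22566 of 22575 probes. As a check of the tissue, at least 5 of 7 epithelial markers (Epcam, Cdh1, Krt8, Krt18, Krt19, Cldn3 and Cldn7) lay above the reference in 11 tumours. In T176 none did, and their mean level there was -3.72, against 0.55 to 2.33 in the other 11 tumours.

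The promoters of 4 members are shown because they carry the contrast that follows, 3 fast myosin genes that differed in size of change and 1 slow troponin. Each runs 5′ to 3′ along the gene's strand, from 250 bases before to 50 bases after the start of a RefSeq transcript in GRCm38.p6. Capitals mark an E-box (CANNTG), the motif bound by Myod1 and its relatives, or a match to the MEF2 motif. Myh4 lies at chr11:67237562-67237861 on the + strand, Myh2 at chr11:67170777-67171076 on the + strand, Myh1 at chr11:67199852-67200151 on the + strand, and Tnnt1 at chr7:4515926-4516225 on the - strand.
Myh4: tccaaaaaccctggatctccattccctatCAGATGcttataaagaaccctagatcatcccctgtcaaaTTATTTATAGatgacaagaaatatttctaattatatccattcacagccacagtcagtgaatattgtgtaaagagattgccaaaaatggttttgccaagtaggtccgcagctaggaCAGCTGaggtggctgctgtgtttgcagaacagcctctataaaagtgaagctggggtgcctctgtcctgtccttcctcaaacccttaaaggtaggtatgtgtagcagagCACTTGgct
Myh2: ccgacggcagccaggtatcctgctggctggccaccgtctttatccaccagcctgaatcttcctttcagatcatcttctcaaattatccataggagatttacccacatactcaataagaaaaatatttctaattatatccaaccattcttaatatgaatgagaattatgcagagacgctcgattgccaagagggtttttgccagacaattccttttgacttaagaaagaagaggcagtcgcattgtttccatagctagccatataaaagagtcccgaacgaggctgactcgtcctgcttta
Myh1: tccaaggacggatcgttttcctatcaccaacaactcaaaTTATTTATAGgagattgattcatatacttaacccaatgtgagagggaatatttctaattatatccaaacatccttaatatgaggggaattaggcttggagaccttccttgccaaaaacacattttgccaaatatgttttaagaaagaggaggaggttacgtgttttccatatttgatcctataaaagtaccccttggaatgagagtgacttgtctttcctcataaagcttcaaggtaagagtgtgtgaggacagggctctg
Tnnt1: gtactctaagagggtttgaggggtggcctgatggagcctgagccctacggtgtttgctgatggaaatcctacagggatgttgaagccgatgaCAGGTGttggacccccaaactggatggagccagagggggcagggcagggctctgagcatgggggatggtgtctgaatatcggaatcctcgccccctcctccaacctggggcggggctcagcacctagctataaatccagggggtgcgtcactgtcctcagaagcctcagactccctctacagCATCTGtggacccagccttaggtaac

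The Myh4 window held 3 E-boxes and 1 MEF2 match, Myh1 held 1 MEF2 match and no E-box, Myh2 held neither, and Tnnt1 held 2 E-boxes. RefSeq promoters were matched for 33 of the 42 members, 41 windows of 300 bases in all, and both strands were searched. An E-box stood in 35 of the 41 windows, against 72.3% of all 32851 promoters of this length. A MEF2 match stood in 6 of 41, those of Myh4, Myh1, Myh8, Pvalb, Myoz2 and Ttn, against 3.19% of all. The matches in Myh4, Myh1 and Myh8 had the same letters, TTATTTATAG, beginning at -182, -211 and -99 from the start. The letters TATAAA, searched on both strands, stood in 9 of 41 windows against 13.6% of all, and on the reverse strand they can overlap a MEF2 match, as they do in Myh4, Myh1 and Myh8. A match is a description of letters and shows no binding.

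The members lay far below the reference RNA in nearly every tumour. The mean level over the tumours was below 0 for all 42 and below -1 for 41, with a median of -3.67, against a median of 0.01 over all genes. Myot, which encodes the Z-disc protein myotilin, had the lowest mean, -7.18, and Tcap, which encodes the titin cap telethonin, the highest, -0.0039. Averaged over probes, 40 members stayed below the reference in every tumour measured. The others were Myh4, above it in T55, and Tcap, which ranged from -0.69 to 0.70. Single probes of Myh1, Myl3, Ryr1 and Ttn lay above the reference in some or all tumours. Ratios of this kind hold no signal level, so it is not known which of these low values lay near the background of the array. In bulk RNA, fewer muscle cells and less muscle RNA per cell cannot be told apart. Missing values were those of Mylpf in T55, Tcap in T372 and Pygm in T2134, and the fits of these genes drop that tumour.

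Across the tumours, 8 of the 42 members differed by limma's moderated F-test with an adjusted p under 0.05, or 19.0%, against 18.4% of all genes (3104 of 16877). The share is near the background. The spread within a tumour, against which the test measures tumours, is known only from T172 and T284, which had more than 1 array. By role, the called members were 5 of 14 fast fibre genes (Myh4, Myh2, Actn3, Myoz1 and Pvalb), 1 of 9 slow fibre genes (Tnnt1), 1 of 8 shared sarcomere genes (Myot) and 1 of 4 energy genes (Eno3). No developmental myosin, coupling gene or transcription factor was called. At an unadjusted p under 0.05 there were 15 members, against 30.4% of all genes. The median SD of a member over tumours was 0.46, against 0.39 for all genes. Of the 8 called members, 7 were highest in T55, and the other, Eno3, was highest in T176 with T55 next. Without T55 only Eno3 was called (1 of 42, against 19.3% of all genes). Without the first array of T172, 13 members were called, and 13 also without the tumour T172. The share of all genes called in those refits is not given here, so the rise cannot be read as particular to the members.

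**Figure D1:**
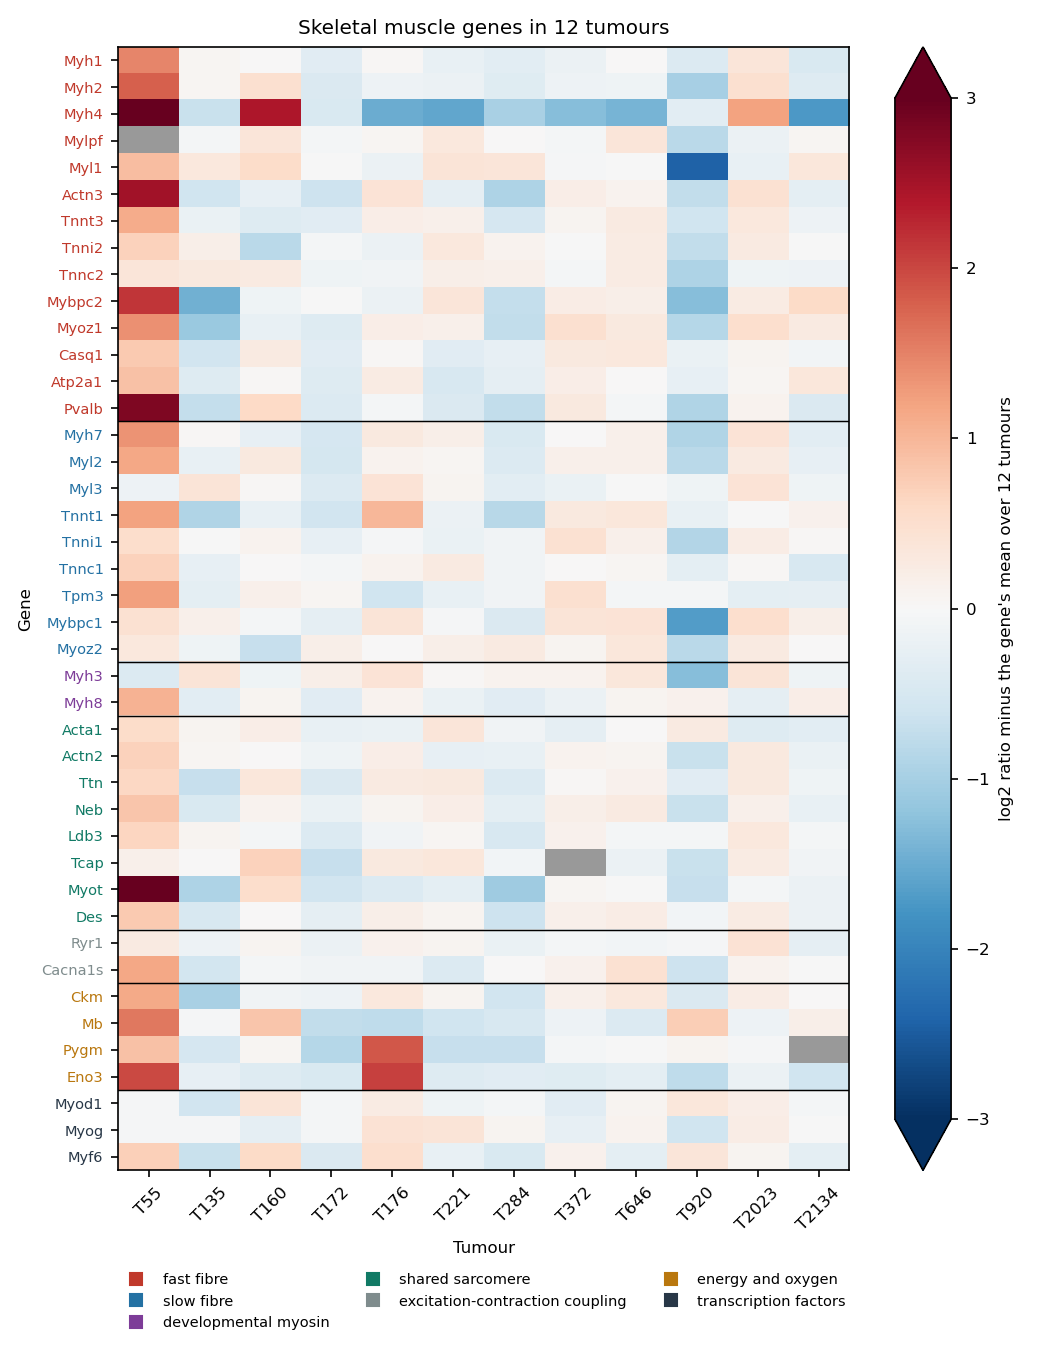
Levels of the 42 members (rows, grouped by role) in 12 tumours (columns), as log2 ratios centred on each gene's 12-tumour mean. Colours stop at 3 above and 3 below the mean, and grey marks a missing value. T55 is the highest tumour for 31 of its 41 measured members, and T920 the lowest for 17 of 42.

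T55 stood above the other 11 tumours for most members. It was the highest tumour for 31 of 41 measured members, against 5.89% of all genes, and 19 members lay over 1 above the mean of the other 11 (log2), against 2.2% of all genes. Its difference from that mean was positive for 37 of 41, against 51.2% of all genes, with a median of 0.95, against 0.01 over all genes. Tested gene by gene with limma over all genes, 2 members rose in T55 at an adjusted p under 0.05, Pvalb and Myot, and none fell. Over all genes, 4 of 16832 were called higher (0.0238%) and 9 lower (0.0535%). At an unadjusted p under 0.05, 25 members were higher in T55 and 0 lower, against 1.17% and 0.553% of all genes. The comparison assumes that T55, a single array, varies like the other 11.

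The fast myosin heavy chain Myh4, the chain of the fastest fibres, showed the widest range of any member. Its level was 2.97 in T55, against -0.81 in T160, -2.02 in T2023 and -3.54 in T920. On the arrays of T172 it was -4.91 and -2.46, and on those of T284 -5.11 and -3.31. The other 6 tumours lay between -4.97 and -3.89, so T55 was the one tumour in which Myh4 exceeded the reference, and no other tumour overlapped it. Myh4 differed between tumours (limma F-test, adjusted p = 0.0102). T55 lay 6.77 ± 1.21 (log2, SE) above the mean of the other 11, a ratio 109 times higher, but this did not pass the test in T55 (limma, adjusted p = 0.0736). The 2 arrays of T172 differed by 2.45 and those of T284 by 1.80, the largest such gaps among the members, whose median gaps were 0.37 and 0.29.

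Pvalb, which encodes parvalbumin, the calcium buffer that speeds relaxation of fast fibres, had a level of -0.20 in T55. In the other 11 tumours it ranged from -3.92 to -2.41 with a median of -3.41, and T160 was next below T55. The difference was 3.05 ± 0.47 (SE), an 8.31-fold higher ratio (limma, adjusted p = 0.034), and Pvalb also differed between tumours (F-test, adjusted p = 0.00713). The call in T55 was lost when T135, T172, T2134, T221, T284 or T646 was left out (adjusted p = 0.0513 to 0.0674), and over all left-out arrays and tumours the difference was 2.99 to 3.14.

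Actn3, the fast fibre α-actinin of the Z-disc, stood at -2.16 in T55, against -5.60 to -4.21 with a median of -4.94 in the other 11. Actn3 was thus highest in T55, as were 5.89% of all genes. Its difference of 2.74 ± 0.47 (SE) gave a limma adjusted p of 0.059 in T55, and 0.00591 between tumours. Myoz1, which encodes the fast fibre Z-disc protein calsarcin-2, stood at -3.39 in T55, against -5.86 to -4.24 in the other 11. It was called between tumours (adjusted p = 0.0303) and gave a difference of 1.48 ± 0.56 (SE) in T55 (adjusted p = 1.0). The call of Myoz1 between tumours was lost after quantile normalization (adjusted p = 0.122). In both genes T2023 was the next highest tumour.

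Myh2, the IIa heavy chain, averaged over its 2 probes, stood at -3.20 in T55, against -6.00 to -4.52 with a median of -5.16 in the other 11. It was called between tumours (adjusted p = 0.0281), and its difference in T55 was 1.96 ± 0.42 (SE, adjusted p = 0.258). Myh1, the IIx heavy chain, stood at -0.56 in T55, against -2.47 to -1.65, a difference of 1.59 ± 0.29 (SE, adjusted p = 0.0778), and it was not called between tumours (adjusted p = 0.134). For both genes the average hides probes that disagree. Fitted on its own among all probes, 1 probe of Myh2 was at -1.49 in T55, 3.82 ± 0.59 (SE) above the others (limma, adjusted p = 0.0305), and the other probe was at -4.91, a difference of 0.10 ± 0.36. For Myh1, 1 probe was at -0.97 in T55, 3.42 ± 0.45 above the others (adjusted p = 0.0102), while the other stayed between -0.15 and 0.27 in every tumour. In the responding probes of Myh1 and Myh2, as in Myh4, T55, T160 and T2023 were the 3 highest tumours. Heavy chain genes are close in sequence, and whether one gene's RNA bound another's probe was not tested.

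Of the remaining fast fibre genes, none passed the F-test with all arrays used, and none with a value in T55 was called there. Mybpc2, the fast myosin-binding protein C of the thick filament, was 2.35 ± 0.65 (SE) higher in T55, at -1.53 against -5.14 to -3.10 (adjusted p = 0.916), and gave 0.0555 between tumours. The troponin genes Tnnt3, Tnni2 and Tnnc2, which place calcium control on the thin filament of fast fibres, lay 1.21, 0.75 and 0.40 above the mean of the other 11. Myl1, the essential light chain of fast myosin, had a difference of 1.02 ± 0.78 (SE), and gave an adjusted p of 0.0545 between tumours (F-test). Both Mybpc2 and Myl1 thus lay close to the threshold. With an array or tumour left out, the F-test called Myl1 in 13 of 16 refits and Mybpc2 in 11 of 16. Atp2a1, the calcium pump of the fast sarcoplasmic reticulum, had a difference of 0.95 ± 0.32, and Casq1, its calcium store protein, one of 0.86 ± 0.32 (SE). All 13 fast fibre genes measured in T55 had their highest level there. Mylpf, the fast regulatory light chain, had no value in T55 and ranged from -3.76 in T920 to -2.58 in T646.

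**Figure D2:**
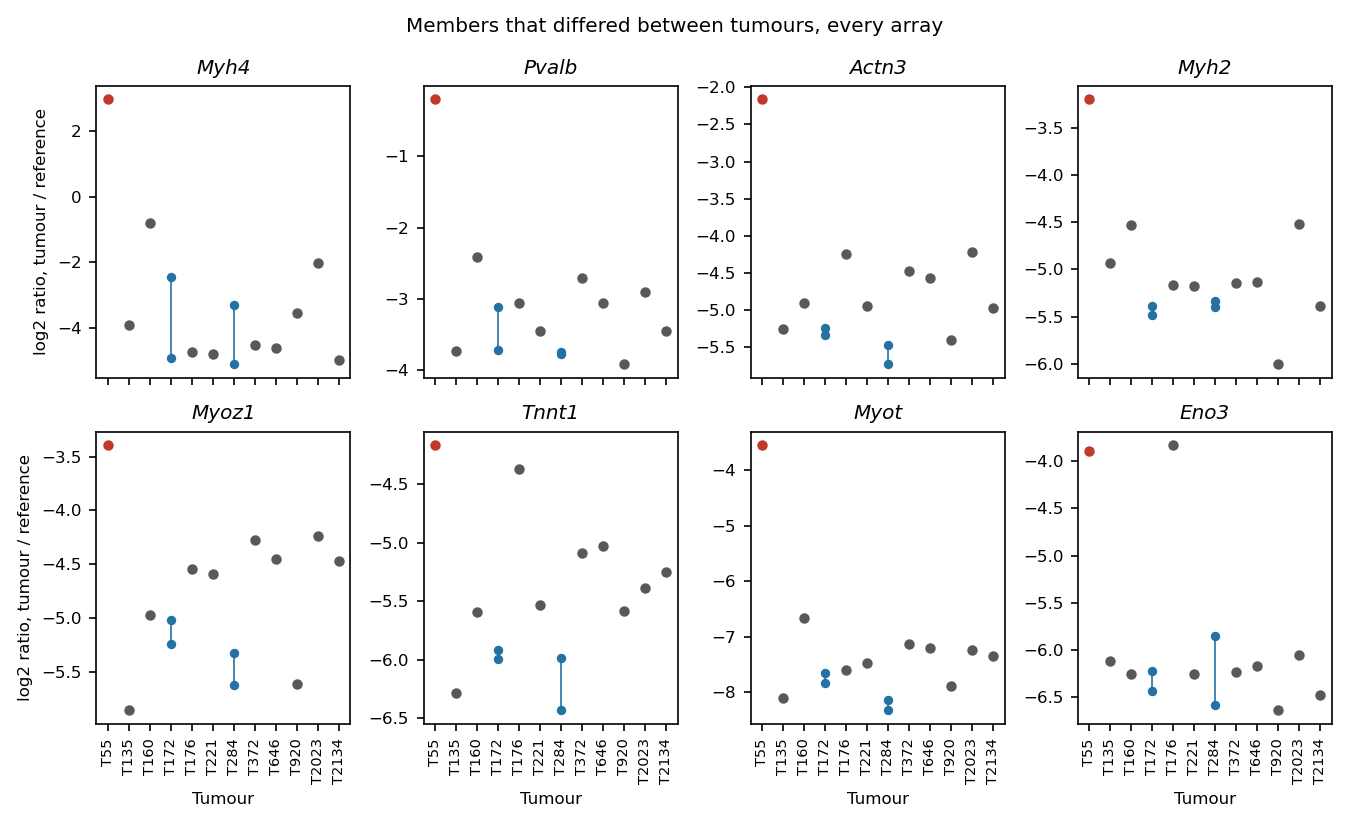
Log2 ratio of tumour over reference for the 8 members called by the F-test, 1 panel each with its own axis. Red is T55, blue the 2 arrays of T172 and of T284 joined by a line, and grey the other tumours. T55 is highest in 7 panels, and in Eno3 it lies at -3.89 beside T176 at -3.83.

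Slow fibre genes mostly had smaller differences in T55 than fast ones. Tnnt1, the slow troponin T, was the called one, with a level of -4.17 in T55, -4.37 in T176 and between -6.28 and -5.03 elsewhere (F-test, adjusted p = 0.0385). That call was lost without T55 (adjusted p = 0.0822), T176 (0.0699), T284 (0.0535) or the first array of T284 (0.051), and after quantile normalization (0.0705). In T55 alone its difference was 1.31 ± 0.54 (SE, adjusted p = 1.0). Myh7, the slow heavy chain, stood at -3.77 in T55, against -6.03 to -4.72 in the other 11, a difference of 1.47 ± 0.41 (SE, adjusted p = 0.926).

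Tpm3, the slow α-tropomyosin gene that other cells also use, had a difference of 1.33 ± 0.31 (SE) in T55, and Myl2, the slow regulatory light chain, by 1.27 ± 0.38. Tnnc1 and Tnni1, the slow troponins C and I, had differences of 0.75 and 0.57. Mybpc1, the slow myosin-binding protein C, and Myoz2, calsarcin-1 of the slow Z-disc, had differences of 0.49 and 0.35, and neither had its highest level in T55. Myl3, the slow essential light chain, had a level of -1.48 in T55, against -1.73 to -0.92 in the other 11. Its 2 probes lay at different levels, -2.74 and -0.22 in T55. Of the 9 slow fibre genes, 6 were highest in T55.

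Set side by side, the 13 fast fibre genes had differences in T55 of 0.40 to 6.77 with a median of 1.48, and 9 of them by over 1. The 9 slow fibre genes had differences of -0.17 to 1.47 with a median of 0.75, and 4 by over 1. Taken against each gene's mean over the 12 tumours, the fast median minus the slow median was 0.67 in T55 (1.36 for fast and 0.69 for slow). In the other 11 tumours this contrast lay between -0.16 in T135 and 0.14 in T160. The same contrast varied between the 2 arrays of a tumour with an SD of 0.18, from T172 and T284. In T920 both medians were low, at -0.78 for fast and -0.81 for slow genes. No test was made of this contrast, since the members were chosen with earlier results of these data known.

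**Figure D3:**
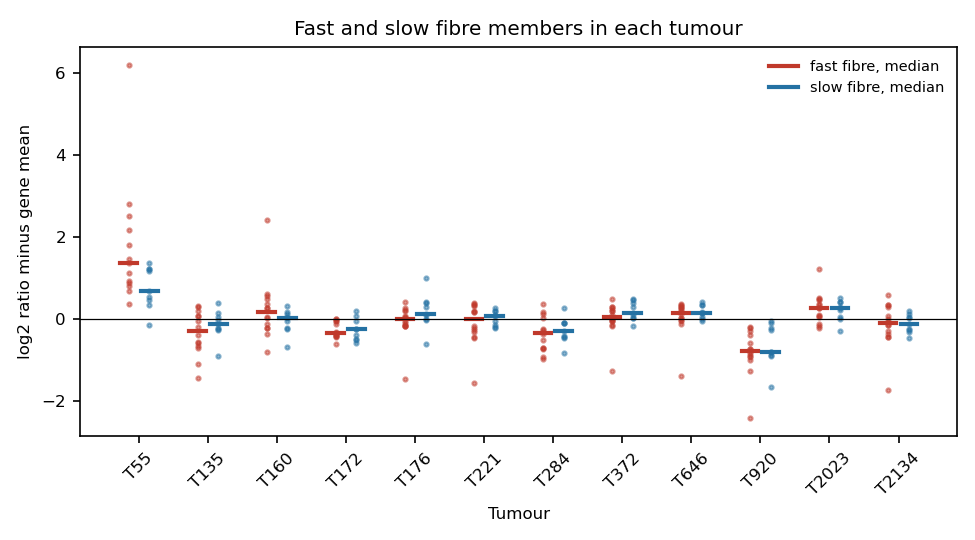
Centred log2 ratios (each gene's 12-tumour mean removed) of fast fibre genes (red points) and of slow fibre genes (blue points) in each tumour, with bars at the medians. The medians in T55 are 1.36 for fast and 0.69 for slow genes, and in each of the other 11 tumours they lie within 0.16 of each other.

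The developmental myosins did not move as a pair. Myh8, the perinatal heavy chain, averaged over 2 probes, stood at -1.37 in T55, against -2.75 to -2.22 in the other 11. The difference was 1.13 ± 0.26 (SE) and was not called in T55. Its probes gave differences of 1.09 ± 0.57 and 1.18 ± 0.39 (SE). On the first, T2134 at -1.26 lay close to T55 at -1.18. Fitted alone, that probe was called between tumours (limma F-test, adjusted p = 0.0443), and the other probe was not. Myh3, the embryonic heavy chain, stood at -5.20 in T55, against -6.06 to -4.37, a difference of -0.45 ± 0.47 (SE). The heavy chain genes Myh3, Myh2, Myh1, Myh4, Myh8 and Myh13 are neighbours in that order on chromosome 11. Along that order their differences in T55 were -0.45, 1.96, 1.59, 6.77, 1.13 and 0.03, with Myh4 as the largest. Those of Myh2 and Myh1 average probes that disagree, while Myh4 had 1 probe. The single probes gave 3.82 and 0.10 for Myh2, and 3.42 and -0.24 for Myh1. Myh13, the extraocular chain and no member of the list, ranged over the 12 tumours only from -2.51 to -1.94.

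Among the shared sarcomere genes, Myot stood out. Its level was -3.55 in T55, against -8.23 to -6.65 with a median of -7.46 in the other 11, so no other tumour came within 3 of it. The difference was 3.95 ± 0.46 (SE), a 15.5-fold higher ratio (limma, adjusted p = 0.00505), and it stayed called whichever single tumour or second array was left out (adjusted p up to 0.013). Between tumours its adjusted p was 0.00126. The other 7 genes of this group did not pass either test. Neb, the ruler protein nebulin of the thin filament, had a difference in T55 of 0.90 ± 0.33 (SE), and Des, the intermediate filament desmin, one of 0.85 ± 0.32. Actn2, the α-actinin of all striated muscle, and Ldb3, a Z-disc adaptor, had differences of 0.75 and 0.70. Ttn, the molecular spring titin, and Acta1, the skeletal α-actin, had differences of 0.67 and 0.61, and Tcap one of 0.16. Of the 8 genes, 7 were highest in T55, and Tcap was highest in T160. Of 7 Ttn probes fitted singly, 4 were called between tumours although the average of the 7 was not. The T55 differences of these 4 ranged from 0.26 to 2.03, and not all 4 were highest in T55. A called probe at -3.41 in T55 was highest in T221, at -1.96. Another at -1.85 in T55 was highest in T160, at -0.64, and the rest of the 4 were highest in T55.

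Of the coupling genes, Cacna1s, the voltage sensor of the muscle calcium channel, stood at -2.42 in T55, against -4.21 to -3.12 in the other 11, a difference of 1.27 ± 0.34 (SE, limma adjusted p = 0.911). Ryr1, the calcium release channel it opens, had a difference of 0.30 ± 0.25 as an average of 3 probes. Of these, 1 was at -2.97 in T55, against -4.82 to -3.90 in the other 11, and the others were at 0.02 and 0.10.

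Among the energy genes, the highest levels were in T55 or T176. Eno3, the muscle enolase of glycolysis, stood at -3.89 in T55 and -3.83 in T176, and the remaining 10 tumours lay between -6.64 and -6.05. It was called between tumours (adjusted p = 0.0132), and not without T176 (adjusted p = 0.0619). Pygm, the muscle glycogen phosphorylase, had its highest level in T176, -1.15, against -3.87 to -2.15 in the other tumours with a value, T55 being next. The difference in T176 was 2.06 ± 0.50 (SE, limma adjusted p = 0.042), and it is 1 of 42 members called there, where 2.48% of all genes were called higher and 1.34% lower. This call was lost when T135, T160, T2023, T221, T284, T372, T646 or T920, or the first array of T172 or of T284, was left out (adjusted p = 0.0502 to 0.0797), and with a variance trend (0.0588). Mb, the oxygen store myoglobin, stood at -0.31 in T55, against -2.66 to -1.08, a difference of 1.73 ± 0.53 (SE, adjusted p = 1.0). Ckm, the muscle creatine kinase, stood at -3.72 in T55, against -5.81 to -4.52, a difference of 1.24 ± 0.41 (SE, adjusted p = 1.0).

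The transcription factors that set muscle identity showed no shift as a group. Myod1, which commits cells to muscle, stood at -1.10 in T55, against a median of -1.13 in the other 11. Myog, myogenin, which drives differentiation, stood at -3.94, against a median of -3.93. Myf6, which is kept on in mature fibres, stood at -3.16 in T55, against -4.52 to -3.28, a difference of 0.77 ± 0.43 (SE, limma adjusted p = 1.0).

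**Figure D4:**
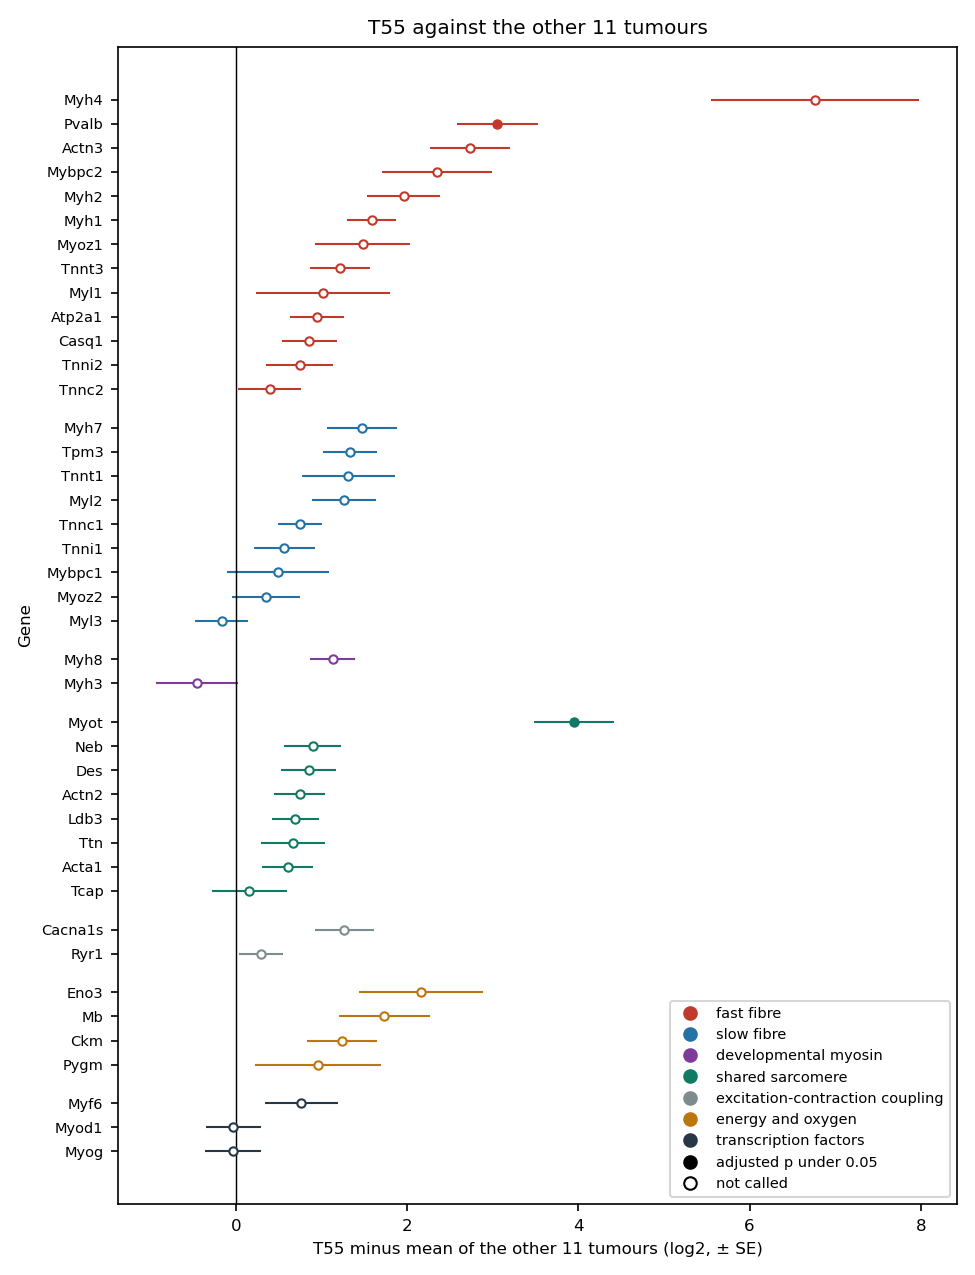
Difference in log2 ratio between T55 and the mean of the other 11 tumours for 41 members, with limma's standard error, by role. Filled points are the called members, Pvalb at 3.05 and Myot at 3.95. Myh4 lies farthest to the right, at 6.77 with a wide error, and Myod1 and Myog lie near 0.

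T920 was the low end for many members. It was the lowest tumour for 17 of 42, against 13.6% of all genes, and its median difference from the other 11 was -0.67. Myl1 fell there, at -6.23 in T920, against -4.01 to -2.86 with a median of -3.48 in the other 11 (difference -2.66 ± 0.36 SE, limma adjusted p = 0.0094). It was the only member called in T920, where 0.136% of all genes were called lower and 0.083% higher (9 members were lower at an unadjusted p under 0.05, against 5.54% of all genes), and it was not called after quantile normalization (adjusted p = 0.216). Mybpc1 was at -5.41 in T920, against -4.18 to -3.23 (difference -1.82 ± 0.33 SE, adjusted p = 0.0534), and Myh3 at -6.06, against -5.20 to -4.37 (adjusted p = 0.0938). Genes outside all lists with a mean level below -3 were low in T920 too, with a median difference of -0.46 over 338 genes, and the part of this in the members' values was not tested. The 32 members with a mean below -3 had a median difference of 0.99 in T55, with 50% over 1 and 81.2% highest there. The genes outside all lists had a median of 0.18 in T55, with 5.34% over 1 and 11.6% highest.

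No member was called in T135, T160, T172, T221, T284, T372, T646, T2023 or T2134 by limma, where over these 9 comparisons 0.0494% of all genes were called higher and 0.0191% lower. At an unadjusted p under 0.05, 2 members were lower in T135 and 1 in T160, against 1.84% of all genes over the 9, and 0 were higher in any of them, against 2.67%. T160 was the second highest tumour for Myh4, Pvalb, Myot and Mb, at -0.81, -2.41, -6.65 and -1.08.

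Other genes of skeletal muscle, 76 measured of 89 listed, were examined beside the members. Of these, 22 differed between tumours (28.9%, against 18.4% of all genes). Separately, 20 of the 76 were highest in T55, against 5.89% of all genes. By list the 22 that differed included 6 of 28 sarcomere genes (Myom1, Myom3, Smpx, Ankrd2, Cmya5 and Fhl1). They also included 3 of 17 membrane and calcium genes (Trdn, Hrc and Sgca). Among genes of the nerve contact 2 of 8 differed (Chrna1 and Chrnd), and among metabolic genes 7 of 15 (Cox6a2, Cox7a1, Ckmt2, Gpd1, Fbp2, Adssl1 and Fabp3). Satellite cell and early myogenic genes gave 4 of 8 (Pax3, Mef2c, Six4 and Cdh15). In T55 1 of the 76 rose, Smpx, a small muscle protein, at -4.66 in T55, against -7.57 to -6.48 in the other 11 (difference 2.26 ± 0.33 SE, limma adjusted p = 0.0223, and 0.0504 without T2134).

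Others among the called genes had large but uncalled differences in T55. Cmya5, the Z-disc protein myospryn, stood at -1.88 in T55 and -2.23 in T176, and elsewhere between -6.12 and -4.52. Trdn, which encodes triadin of the calcium release complex, stood at -2.64 in T55, against -5.44 to -3.87 in the other 11. Ckmt2, the mitochondrial creatine kinase, stood at -3.63 in T55, against -7.09 to -5.19, and Cox6a2, a muscle subunit of cytochrome oxidase, at -3.46, against -6.32 to -4.73. Fabp3, a fatty acid carrier of muscle and other tissues, stood at 0.80 in T55 and had its highest level, 1.61, in T2134.

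T176, in which no epithelial marker lay above the reference, had other muscle genes called. There 9 of 75 rose and Dmd, dystrophin, fell, against 2.48% of all genes higher and 1.34% lower. Of the 9, 3 belong to the 8 satellite cell and early myogenic genes, Pax3 at 2.58 in T176 against -1.78 to -0.35 in the other 11, Mef2c at 1.07 against -4.36 to -2.12, and Cdh15, the M-cadherin of muscle precursors, at -0.14 against -5.05 to -2.79. Their differences were 3.73 ± 0.45, 4.25 ± 0.65 and 4.09 ± 0.64 (SE, limma adjusted p = 0.000363, 0.00187 and 0.00209). The other 5 of the 8 were not called in T176, with differences of 0.08 for Pax7, 0.40 for Myf5, 0.37 for Six4, -0.05 for Msc and -0.09 for Mymk. Hrc, a calcium-binding protein of the sarcoplasmic reticulum, stood at -0.40 in T176, against -5.72 to -3.14 in the other 11, and Myom1, which ties thick filaments together, at -1.91 against -5.31 to -3.51. Sgca, Cacnb1, Srl and Cav3, from the list of membrane and calcium genes, were the others, with differences of 2.58, 2.08, 1.21 and 1.17. With a variance trend Srl and Cav3 were not called (adjusted p = 0.0959 and 0.0897). In the same tumour the fast fibre members had a median difference of -0.01, with Myh4 at -4.72, and the slow fibre members 0.12. Myod1 and Myog stood at -0.83 and -3.48 in T176, against means of -1.10 and -3.94 in the other 11 (adjusted p = 0.871 and 0.626).

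Markers of other cells were set beside T55's shift. None of 13 heart markers was highest in T55, their median difference was -0.02 there, and their mean level was -2.39 in T55, against -2.77 to -1.95 in the other 11. Smooth muscle markers had a median difference of -0.15, endothelial -0.06, brown fat 0.10 and nerve sheath 0.28 in T55. Adipocyte markers had a median difference of 0.70, with 1 of 9 highest in T55, and their mean level was -2.53 in T55, against -3.91 to -1.63 in the other 11, where T221 was highest. Epithelial markers had a median difference of 1.01 from a mean that includes T176, where their mean level was -3.72. T55's mean level of 1.84 lay inside the range of the remaining tumours, 0.55 to 2.33. No marker of these lists was called in T55 by limma. Between tumours the F-test called 4 of 13 heart, 5 of 10 smooth muscle, 7 of 9 adipocyte, 2 of 5 brown fat, 3 of 7 endothelial, 7 of 7 epithelial and 3 of 4 nerve sheath markers, against 18.4% of all genes. The part of these cells in the members' values was not tested.

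**Figure D5:**
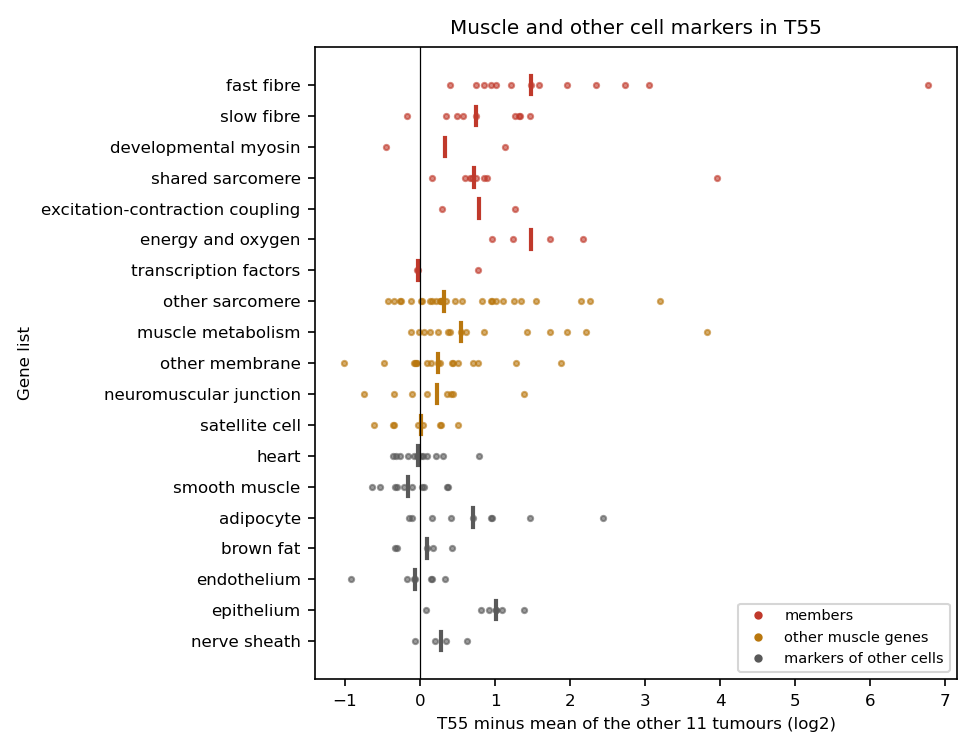
Difference in log2 ratio between T55 and the mean of the other 11 tumours for each gene of the member lists (red), other muscle lists (ochre) and marker lists of other cells (grey), with bars at the medians. Fast fibre genes have a median of 1.48, slow fibre genes 0.75, satellite cell genes 0.01 and heart markers -0.02.

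Outside all lists, 10 genes were called in T55, and 9 of these fell. Hdx, a homeobox gene, stood at -2.72 in T55, against -0.41 to 0.34 in the other 11 (limma, adjusted p = 0.00348). Smok3a, Sp4, Psg16, Olfr575, Usp50, Shcbp1l, Vav3 and Btrc fell by 1.73 to 2.60 on the log2 scale. Spink8, a serine protease inhibitor gene, rose by 2.42 ± 0.32 (SE). The other genes called higher in T55 were Pvalb, Myot and Smpx, from lists chosen with earlier results of these data known.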

How the data were processed

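Levels are log2 ratios of tumour over reference as deposited by the authors; base 2 was inferred from their range, -9.19 to 7.42. The direction follows the dyes, per the labels. The scanner, background correction and normalization stay unstated, and array medians lay between 0 and 0.018. Total RNA came from a Qiagen RNeasy extraction, per the labels' protocols.

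Probes were named by the platform annotation, with symbols updated through RefSeq (GRCm38.p6). Of 22575 probes, 18658 had 1 symbol, 30 several and 3887 none. Probes of a gene were averaged, and 16877 genes with values on at least 12 arrays were tested. In limma 3.58.1 (R 4.3.3), a moderated F-test compared 12 tumours on 14 arrays, and each tumour was tested against the mean of the other 11 after averaging the arrays of T172 and of T284. Adjustment followed Benjamini-Hochberg over all genes, within each tumour for the second test, with calls at 0.05. The fast and slow contrast had no test. The number of arrays limits precision. Tables and figures used Python 3.11.15, pandas 2.3.3 and matplotlib 3.10.9.

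The members, the other muscle and marker lists and the rules were chosen with earlier results of these data known. Named genes are all members, the listed other genes that were called between tumours or in a tumour with called members (beyond muscle lists, as counts), and the 10 largest called differences outside the lists in T55; uncalled genes of the other lists were named after their values were seen. Alternatives were quantile normalization, 1 probe per gene, complete genes, a robust prior, a variance trend, a threshold of 0.01, left-out arrays and tumours, and, chosen after seeing the data, each probe alone.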

Additional observations from a re-analysis of the deposited data

How the results depend on the processing

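No member called in a tumour changed direction under any alternative run. Members called between tumours numbered 8, and 3 at an adjusted p under 0.01; leaving out 1 array or tumour gave 1 to 13. Other muscle genes numbered 22, and 10 at 0.01. In T55, 2 members were called, against 4 with 1 probe per gene (which keeps the responding probes of Myh1 and Myh2), 1 at 0.01, and 1 to 4 with 1 array or tumour left out. T135, T172, T2134, T221, T284 and T646 were those whose absence gave 1, and T176 and T2023 those that gave 4. Other muscle genes in T55 gave 1, against 0 at 0.01 and 0 to 2 with 1 left out. The 1 call in T176 became 0 with complete genes (Pygm has a missing value), with a variance trend and at 0.01, and was 0 to 2 with 1 left out. The 1 call in T920 became 0 after quantile normalization, and was 1 to 2 with 1 left out. The fast minus slow contrast of T55 was 1.02 and that of T920 -0.179 with means over members; with gene medians as centres it was 0.0977 in T135 and 0.126 in T172. The values of T920, T135 and T172 had the opposite sign in the main setting (0.0274, -0.157 and -0.0836), and other contrasts near 0 also crossed it, while that of T55 stayed positive, 0.596 to 0.744 with 1 left out. For shifts not explained above the cause was not tested. The counts of called genes under these alternatives have no share of all genes beside them. A changed count therefore cannot be told apart from a change over all genes. Over 837 refits of a member's F-test, 43 gained a call and 13 lost one. No paired analysis was possible because all tumours belong to 1 group and each has its own number. Background correction, dim-probe filters and slide blocks were not run, as ratios hold no signal levels.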
